A study of Mus musculus with 12 samples.

Results

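The Hox genes were taken as every probe whose gene name in the scanner files is Hoxa, Hoxb, Hoxc or Hoxd followed by a number. This gave 44 of the 55681 probes and 39 of the 36315 genes on the array. Hoxa held 11 of these genes on chromosome 6, Hoxb 10 on chromosome 11, Hoxc 9 on chromosome 15 and Hoxd 9 on chromosome 2. Of the genes named below, Hoxa9, Hoxa13, Hoxb3 and Hoxd11 had 2 probes each and the others had 1.

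Hox genes encode homeodomain transcription factors that give cells of the embryo their position along the head-to-tail axis. Within a cluster the genes are numbered in order: low-numbered genes act in the hindbrain and neck and respond early to retinoic acid, and high-numbered genes act in the lumbar region, tail and limbs. Polycomb complexes keep the clusters silent, and homeodomain proteins of the TALE class (Pbx, Meis and Pknox) bind DNA together with Hox proteins. In the adult testis retinoic acid also drives undifferentiated spermatogonia into KIT+ differentiating spermatogonia.

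The fractions were GFRα1+ spermatogonia, NGN3+ spermatogonia, KIT+ differentiating spermatogonia and whole testes, with 3 arrays of separate RNA samples in each group. GFRα1+ cells were the EGFP+ cells of Gfra1-EGFP knock-in mice, NGN3+ cells the EGFP+/KIT− cells and KIT+ cells the EGFP+/KIT+ cells of Ngn3-EGFP transgenic mice, whose EGFP outlasts Ngn3 expression. Whole testes were wild-type, and all mice were C57BL/6 and 10 to 11 weeks old. A sample of sorted cells held 10000 to 20000 cells from 1 mouse (GFRα1+ and KIT+) or from 2 pooled mice (NGN3+), a sample of whole testes held 500000 cells, and each labelling used 25 ng of RNA.

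A level is the log2 processed signal of a probe minus the 75th percentile of its array, so that 0 is that percentile. A gene was called detected where the scanner software flagged a probe as well above background on all 3 arrays of a group. Levels were compared between groups for 1 probe at a time and never between genes, since probes differ in brightness. Where the arrays of groups are said not to overlap, this only describes the values. It adds no test to a call, and its share over all genes was not counted. The 75th percentile intensity was 318 to 340 on GFRα1+ arrays, 473 to 675 on NGN3+ arrays, 568 to 633 on KIT+ arrays and 380 to 422 on whole testes, and the share of probes well above background ran from 50.1% to 65.1%. Slide 1 held GFRα1+ replicates 1 and 2 and whole testes replicate 1, slide 2 held the third GFRα1+ sample beside the NGN3+ and KIT+ samples and was read on another scanner, and slide 3 held whole testes replicates 2 and 3.

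Gfra1, Neurog3 and Kit levels followed the sorts. In the order GFRα1+, NGN3+, KIT+, Gfra1 averaged 1.65, −1.22 and −3.38, Neurog3 averaged 4.13, 5.23 and 2.77, and Kit averaged 1.5, 1.96 and 4.55. Of 16 spermatogonial markers 4 rose and 9 fell in NGN3+ against GFRα1+ cells, and 4 rose and 11 fell in KIT+ against NGN3+ cells. Markers of other testicular cells also moved. All 15 spermatid markers rose in NGN3+ against GFRα1+ cells, and none of the 15 passed in KIT+ against NGN3+ cells. The log2 of their mean signal was 1.39 to 2.36 on GFRα1+ arrays, 6.57 to 6.88 on NGN3+ arrays, 6.85 to 7.20 on KIT+ arrays and 8.72 to 9.01 in whole testes. Of the tested peritubular myoid markers 7 of 8 rose in NGN3+ against GFRα1+ cells and 5 of 8 fell in KIT+ against NGN3+ cells, with a log2 mean signal of −2.69 to −2.55, 0.76 to 1.48, 0.72 to 1.17 and 4.12 to 4.34 in the same order of groups.

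Among the remaining lists, NGN3+ against GFRα1+ cells gave 9 of 13 tested Sertoli markers higher, 4 of 6 fibroblast markers higher and 1 lower, 1 of 6 endothelial markers higher and 2 lower, 1 of 3 Leydig markers in each direction, 2 of 4 leukocyte markers higher and 1 lower, 1 of 2 red blood cell markers higher, and 5 of 12 spermatocyte markers in each direction. KIT+ against NGN3+ cells gave 3 of 13 Sertoli, 2 of 6 fibroblast, 4 of 7 endothelial and 1 of 4 leukocyte markers lower, 5 of 12 spermatocyte markers and 1 of 2 red blood cell markers higher, and 0 of 3 Leydig markers in either direction. Lum, Tcf21, Amh, Fshr, Cyp11a1 and Hsd3b1, which mark fibroblasts, Sertoli cells and Leydig cells, were not well above background on any array of sorted cells. Other markers of the same lists were, at 9 to 14 of 16 Sertoli, 3 to 6 of 8 fibroblast and 2 to 3 of 8 Leydig markers on a sorted array. Because cells were pooled for each array, fewer cells of a type and less RNA per cell cannot be told apart.

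More Hox genes were detected in each sorted fraction than in whole testes, and Hoxb contributed the most to every sorted fraction. Of the 39 Hox genes, 18 were detected in GFRα1+ cells, 20 in NGN3+ cells, 16 in KIT+ cells and 10 in whole testes, which is 46.2%, 51.3%, 41.0% and 25.6%, against 54.2%, 65.2%, 61.9% and 62.1% of all genes. Hoxb contributed 8 of its 10 genes in GFRα1+ cells, all 10 in NGN3+ cells, 8 in KIT+ cells and 2 in whole testes. Of these 2, Hoxb3 was detected there by only 1 of its 2 probes. For Hoxc the numbers were 6, 4, 3 and 2 of 9 in the same order. From Hoxa 3, 5, 4 and 3 of 11 genes were detected, and from Hoxd 1, 1, 1 and 3 of 9. The Hoxd gene of all 3 sorted fractions was Hoxd8, and whole testes added Hoxd4 and Hoxd9.

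**Figure D1:**
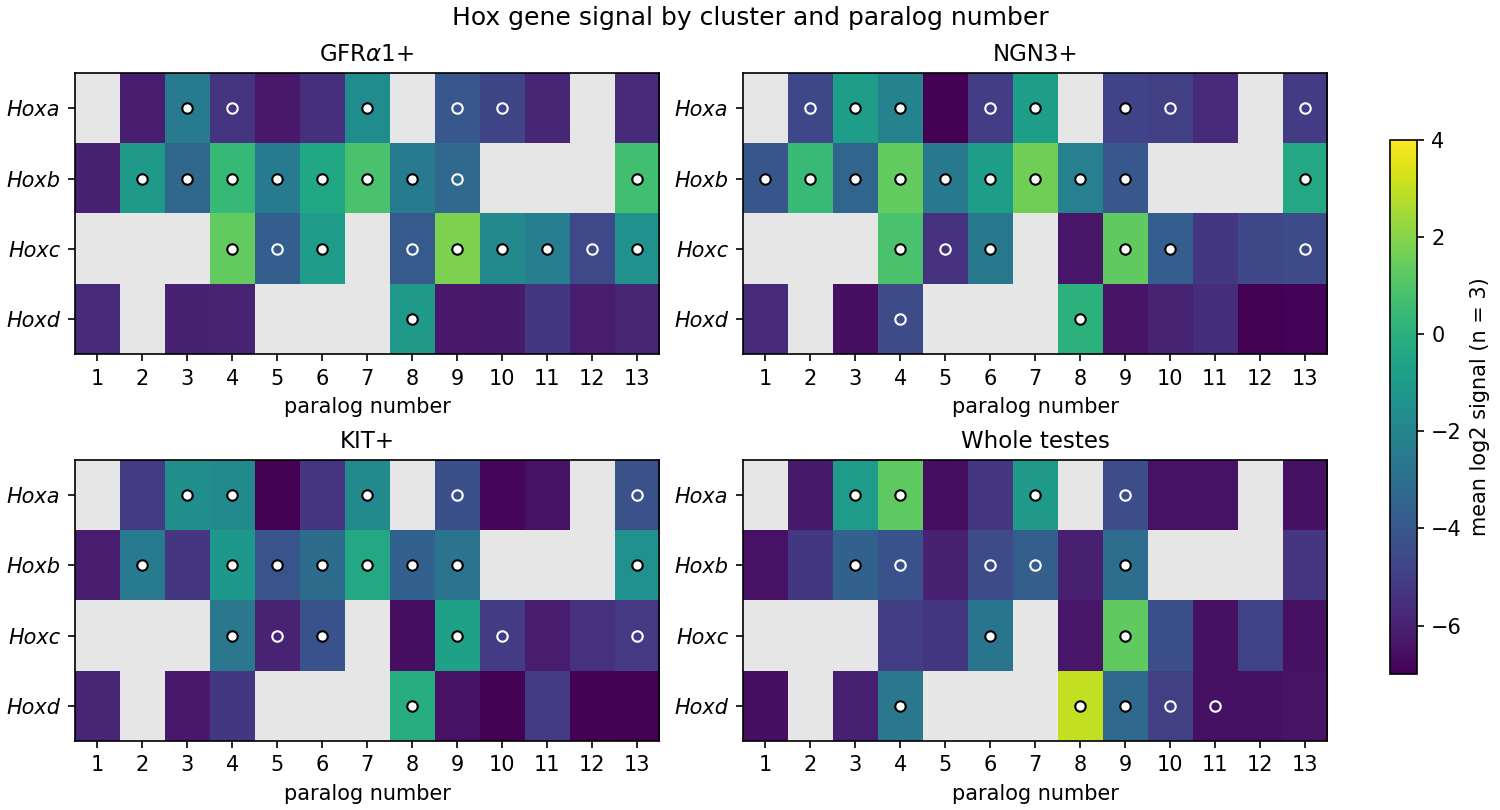
Mean log2 level of Hox genes by cluster (rows) and paralog number (columns) in GFRα1+, NGN3+, KIT+ cells and whole testes (n = 3 arrays each). White discs mark genes detected on all 3 arrays, open rings those detected on 1 or 2, and grey squares hold no value shown here. A square is to be compared with the same square of another panel. All 10 Hoxb genes are marked in NGN3+ cells and 2 in whole testes, where Hoxb3 is marked by only 1 of its 2 probes.

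Hoxa5, Hoxa11, Hoxd1, Hoxd3, Hoxd12 and Hoxd13 were not well above background on any of the 12 arrays. Hoxa2, Hoxa6, Hoxa10, Hoxa13, Hoxc5, Hoxc8, Hoxc12, Hoxd10 and Hoxd11 were well above background on 1 or 2 arrays of at least 1 group and on all 3 of none. Hoxa10, a gene needed for testis descent, reached −2.20 on GFRα1+ replicate 2 but −6.20 and −5.73 on the other GFRα1+ arrays. Hoxc8, which patterns the thorax, lay between −4.04 and −3.76 on GFRα1+ arrays and between −6.98 and −5.03 on NGN3+ arrays, and only 1 GFRα1+ array passed the flag. These genes were not tested.

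NGN3+ and GFRα1+ cells, both undifferentiated spermatogonia, were compared first, the study asking how they differ in their response to retinoic acid. Among the genes higher in NGN3+ cells were Hoxa3, Hoxa4, Hoxa7, Hoxb1, Hoxb2, Hoxb3, Hoxb4, Hoxb7 and Hoxd8, and lower were Hoxb6, Hoxb9, Hoxb13, Hoxc6, Hoxc10, Hoxc11 and Hoxc13. Of 39 Hox genes 22 could be tested. Limma gave 10 higher, where 20.0% of 23790 genes were higher, and 7 lower, where 36.4% were lower (56.4% in either direction). The median log2 ratio of the tested Hox genes was 0.41, or 0.16 with genes at their bound, against −0.19 over all genes. The Hox median changed sign with another background correction (normexp, −0.05), with all 12 arrays in the fit (−0.05) and without NGN3+ replicate 1 (−0.22).

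Hoxb2, a hindbrain gene and direct target of Hoxb1, had levels of 0.65, 0.32 and 0.25 in NGN3+ cells against −1.31, −1.02 and −0.94 in GFRα1+ cells. Every NGN3+ array lay above every GFRα1+ array, and the log2 ratio was 1.5 ± 0.15 (SE; adjusted p = 7.7e-05). Hoxb4, known for expanding blood stem cells, had 1.53, 1.30 and 1.20 in NGN3+ cells against 0.19, 0.53 and 0.40 in GFRα1+ cells, a log2 ratio of 0.97 ± 0.14 (adjusted p = 0.00056). Hoxb7, a trunk gene, had 1.82, 1.63 and 1.42 in NGN3+ cells against 0.74, 0.94 and 0.88 in GFRα1+ cells, a log2 ratio of 0.77 ± 0.14 (adjusted p = 0.0021). For neither gene did the groups overlap.

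Hoxb1, the most anterior gene of its cluster, was well above background only on the NGN3+ arrays, at −3.81, −4.25 and −4.10, against −6.11, −6.13 and −5.78 in GFRα1+ cells. Since all GFRα1+ values were background, the ratio is a bound, at least 1.02-fold (adjusted p = 5.7e-05 for the measured values). For such a bound each background value was first raised to the lowest level that passed the flag on its array, unless it already lay above it, and the group means were then compared. With a floor at that lowest level, or with another background correction, the log2 ratio was 0.03 and 0.00 and did not pass.

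Hoxb3 had 2 probes that did not move alike. The probe at chr11:96209002-96209061 of mm9 had −1.79, −2.34 and −2.36 in NGN3+ cells against −3.83, −3.76 and −3.91 in GFRα1+ cells, a log2 ratio of 1.67 ± 0.43 (adjusted p = 0.010). The probe at chr11:96207114-96207173 of mm9 had −2.93, −3.74 and −3.60 in NGN3+ cells against −2.96, −2.96 and −3.88 in GFRα1+ cells, a log2 ratio of −0.15 ± 0.63 (adjusted p = 0.85). The array annotation ties the second probe to a Hoxd3 transcript as well, and in whole testes it was well above background on all 3 arrays where the first probe was on none. The probe of Hoxd3 itself was background on every array, and which transcript the second probe measured was not tested. The rise of Hoxb3 thus rested on the first probe. Tested on its own, an alternative added after the data were seen, that probe kept its call with any array of the 2 groups left out (log2 ratio 1.48 to 1.77, adjusted p at most 0.038). Without NGN3+ replicate 1, 2 or 3 the second probe became the brighter one and stood for the gene, at −0.40, 0.006 and −0.066, and no rise was called.

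Ratios of both signs were found in Hoxb. Hoxb5 (−0.05 ± 0.19) and Hoxb8 (0.30 ± 0.22) did not pass, and Hoxb6 (−0.42 ± 0.14, adjusted p = 0.030) and Hoxb9 (−0.77 ± 0.27, adjusted p = 0.036) were lower in NGN3+ cells. Both of these calls were lost with the percentile taken over those probes alone that passed the background flag on all arrays, which moved the median of all genes to −0.01. The Hoxb6 call was also lost without NGN3+ replicate 2 or 3 or GFRα1+ replicate 2 or 3 (log2 ratio −0.42 to −0.34), and the Hoxb9 call without replicate 1 or 2 of either group (−0.67 to −0.62). Hoxb13, at the posterior end of the cluster and active in prostate and tail, had −0.20, −0.46 and −0.36 in NGN3+ cells against 0.69, 0.60 and 0.71 in GFRα1+ cells. The groups did not overlap, and the log2 ratio was −1.01 ± 0.16 (adjusted p = 0.00084).

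**Figure D2:**
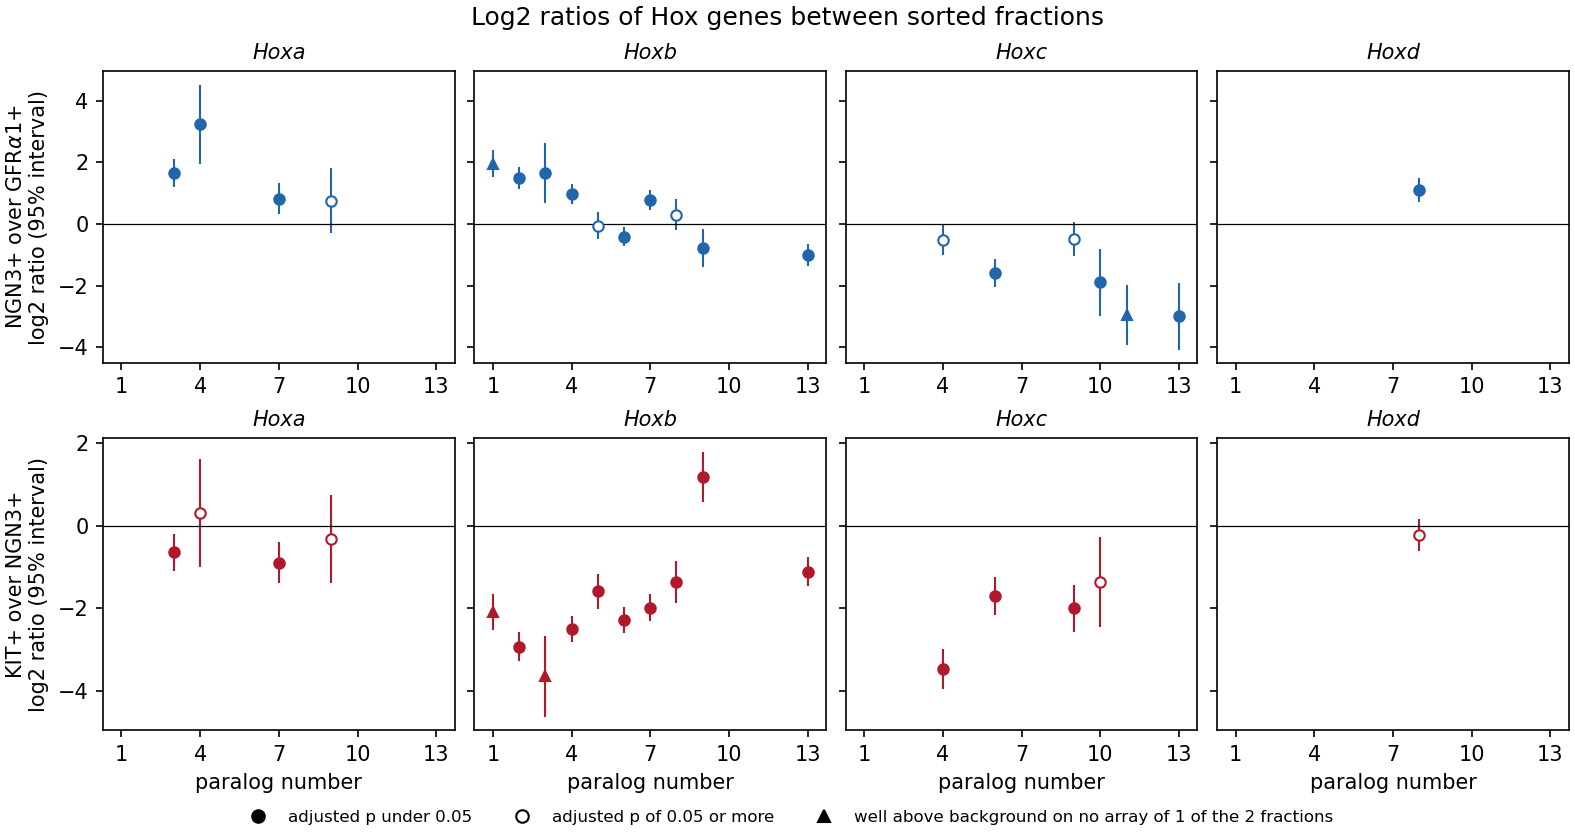
Log2 ratio with its 95% interval for tested Hox genes, by cluster and paralog number (horizontal axis), for NGN3+ over GFRα1+ cells (top) and KIT+ over NGN3+ cells (bottom). Filled symbols passed the test and triangles mark genes that were background in 1 of the 2 fractions. In the top row Hoxb2 is at 1.5 and Hoxb13 at −1.01, and in the bottom row Hoxb9 is the only filled symbol above 0.

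In the Hoxa cluster, Hoxa3, which acts in the thymus and parathyroid, had −0.70, −1.10 and −0.85 in NGN3+ cells against −2.86, −2.56 and −2.16 in GFRα1+ cells, a log2 ratio of 1.64 ± 0.20 (adjusted p = 0.0002). Hoxa4, known in the mouse for transcripts in male germ cells, had −2.56, −1.82 and −1.82 in NGN3+ cells against −6.09, −6.03 and −3.77 in GFRα1+ cells. Of the GFRα1+ arrays only replicate 3 was well above background for Hoxa4, and with background values raised to the lowest level that passed the flag Hoxa4 was at least 3.75-fold higher in NGN3+ cells (measured log2 ratio 3.23 ± 0.57, adjusted p = 0.0016). That array also had the highest spermatid marker signal of the 3, 2.36 against 1.87 and 1.39, and it shared a slide with the NGN3+ arrays. Within that slide the log2 ratio of Hoxa4 was 1.71 (adjusted p = 0.010). Hoxa7 (0.81 ± 0.22) was also higher.

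Hoxd8, the Hoxd gene seen in every group, had −0.12, 0.10 and 0.21 in NGN3+ cells against −0.98, −1.20 and −0.91 in GFRα1+ cells, a log2 ratio of 1.09 ± 0.17 (adjusted p = 0.0009). Hoxa4, Hoxa3 and Hoxd8 rose together with the spermatid and peritubular myoid markers, which are highest in whole testes, as Hoxa4 and Hoxd8 were; the part of such cells in these ratios was not tested. For Hoxb2, Hoxb4 and Hoxb7 whole testes were lower than both fractions, and the part of other cells in their ratios was not tested either.

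The Hoxc genes that passed were all lower in NGN3+ cells. Hoxc13, which is needed for hair and nails, had −4.75, −4.83 and −3.77 in NGN3+ cells against −1.18, −1.49 and −1.68 in GFRα1+ cells, and only 1 NGN3+ array was well above background (log2 ratio −3.0 ± 0.47, adjusted p = 0.00087). Hoxc11 had −5.55, −4.71 and −5.45 in NGN3+ cells, all background, against −2.28, −2.03 and −2.53 in GFRα1+ cells. It was at least 6.14-fold lower in NGN3+ cells (adjusted p = 0.00052). Neither gene overlapped between groups.

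Hoxc10, a gene of the lumbar region, had −4.30, −3.76 and −3.04 in NGN3+ cells against −1.49, −1.67 and −2.26 in GFRα1+ cells, a log2 ratio of −1.89 ± 0.48 (adjusted p = 0.0094). Hoxc6, a gene of the thorax, had −2.37, −2.52 and −2.73 in NGN3+ cells against −0.57, −1.01 and −1.25 in GFRα1+ cells, a log2 ratio of −1.60 ± 0.20 (adjusted p = 0.00023). In both genes all NGN3+ arrays were below all GFRα1+ arrays. Hoxc4 (−0.52 ± 0.21, adjusted p = 0.062) and Hoxc9 (−0.50 ± 0.24, adjusted p = 0.11) did not pass, nor did Hoxa9 (0.76 ± 0.47, adjusted p = 0.195), whose tested probe was well above background on 1 GFRα1+ array. The other Hoxa9 probe passed the flag on 2 GFRα1+ arrays and on no NGN3+ array, and was not tested. It averaged −4.03 in GFRα1+ cells and −4.80 in NGN3+ cells, the other way round.

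Slide and fraction overlapped in this comparison. With slide 2 alone, where GFRα1+ replicate 3 stood for its group, all 17 called Hox genes kept their sign and 12 passed. Among the calls lost were Hoxb3 (1.74, adjusted p = 0.079), Hoxb6 (−0.52, adjusted p = 0.089), Hoxb9 (−0.27, adjusted p = 0.53) and Hoxc10 (−1.44, adjusted p = 0.15).

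**Figure D3:**
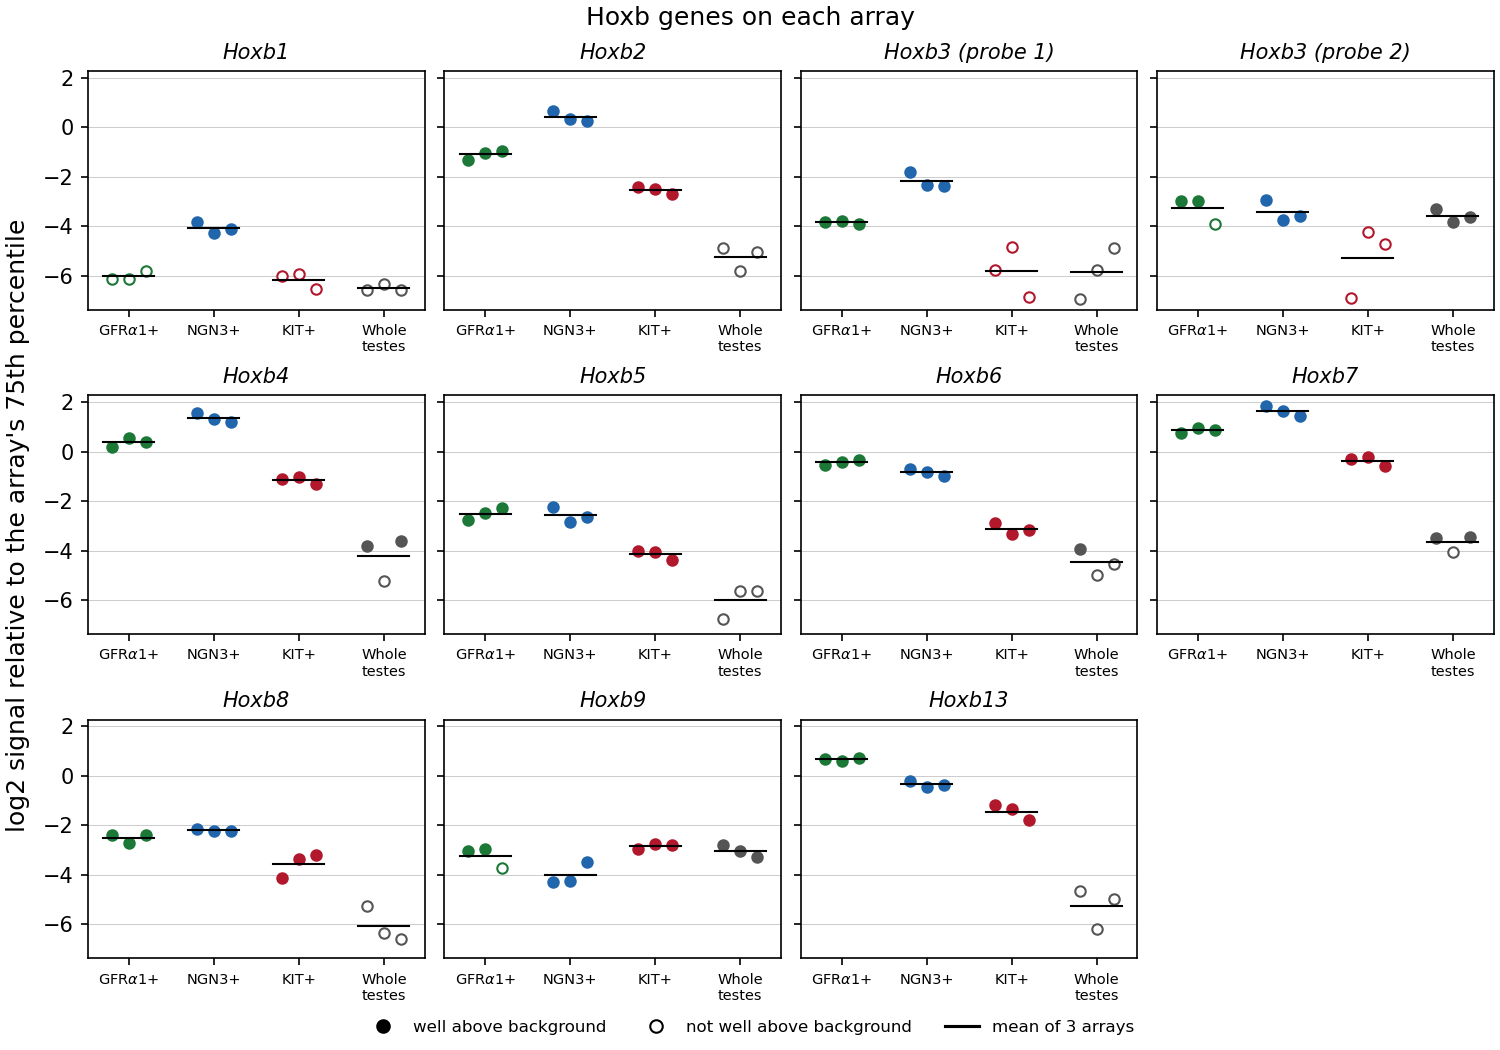
Log2 level of the Hoxb genes on each of the 12 arrays, with the mean of each group as a line and open circles where a spot was not well above background. Hoxb3 is shown by both probes, the first at chr11:96209002-96209061 of mm9. Hoxb2, Hoxb4 and Hoxb7 are highest in NGN3+ cells and Hoxb13 in GFRα1+ cells.

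KIT+ differentiating spermatogonia were compared with NGN3+ cells next. Every Hoxb gene but Hoxb9 was lower in KIT+ cells, as were Hoxc4, Hoxc6, Hoxc9, Hoxa3 and Hoxa7, and Hoxb9 alone was higher. Of 20 tested genes 14 were lower, where 17.0% of 24110 genes were lower, and 1 was higher, where 17.5% were higher (34.5% in either direction). The median log2 ratio of the tested Hox genes was −1.48, or −1.36 with genes at their bound, against 0.05 over all genes. It was −0.71 with normexp background correction and −0.72 with all 39 genes kept in the test. All 6 arrays lay on 1 slide.

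Hoxb2 had −2.40, −2.47 and −2.70 in KIT+ cells against 0.65, 0.32 and 0.25 in NGN3+ cells, a log2 ratio of −2.93 ± 0.15 (adjusted p = 1.6e-05). Hoxb4 had −1.11, −1.02 and −1.33 in KIT+ cells against 1.53, 1.30 and 1.20 in NGN3+ cells, a log2 ratio of −2.50 ± 0.14 (adjusted p = 1.7e-05). Hoxb6 had −2.89, −3.31 and −3.15 in KIT+ cells against −0.71, −0.83 and −0.99 in NGN3+ cells, a log2 ratio of −2.27 ± 0.14 (adjusted p = 2.1e-05). In each of these genes every KIT+ array lay below every NGN3+ array.

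Hoxb7 had −0.32, −0.20 and −0.58 in KIT+ cells against 1.82, 1.63 and 1.42 in NGN3+ cells, a log2 ratio of −1.99 ± 0.14 (adjusted p = 3.8e-05). Hoxb5, which acts in the shoulder region, had −4.02, −4.06 and −4.36 in KIT+ cells against −2.22, −2.82 and −2.62 in NGN3+ cells, a log2 ratio of −1.59 ± 0.19 (adjusted p = 0.00036). Hoxb8 (−1.36 ± 0.22) and Hoxb13 (−1.11 ± 0.16) were lower as well, and none of these 4 genes overlapped between fractions. Hoxb1 was background in KIT+ cells, at −6.00, −5.92 and −6.51, and was at least 1.68-fold lower (adjusted p = 0.0001 for the measured values).

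For Hoxb3 the first probe was background in KIT+ cells, at −5.76, −4.83 and −6.84, which makes it at least 6.24-fold lower than in NGN3+ cells (adjusted p = 0.00035 for the measured values). The second probe was background in KIT+ cells too, at −6.88, −4.21 and −4.73, with a log2 ratio of −1.85 ± 0.63 that did not pass (adjusted p = 0.051). Tested on its own, the first probe kept its call with any array of the 2 groups left out (−4.14 to −3.13). The second probe stood for the gene without KIT+ replicate 1 (−1.05) or NGN3+ replicate 1 (−1.61), 2 (−2.01) or 3 (−1.94), and did not pass. Hoxb9, a gene of the ribs, had −2.95, −2.76 and −2.78 in KIT+ cells against −4.31, −4.25 and −3.47 in NGN3+ cells. All KIT+ arrays were above all NGN3+ arrays, and the log2 ratio was 1.18 ± 0.27 (adjusted p = 0.0094).

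Hoxc4, the most anterior Hoxc gene, had −2.28, −2.63 and −3.0 in KIT+ cells against 1.18, 0.65 and 0.65 in NGN3+ cells. It was 11.0-fold lower, with a log2 ratio of −3.47 ± 0.21 (adjusted p = 2.1e-05). Hoxc9, which sets the identity of thoracic motor neurons, had −0.57, −0.46 and −1.04 in KIT+ cells against 1.64, 1.31 and 1.0 in NGN3+ cells, a log2 ratio of −2.01 ± 0.24 (adjusted p = 0.00042). Hoxc6 had −4.36, −4.40 and −3.96 in KIT+ cells against −2.37, −2.52 and −2.73 in NGN3+ cells, a log2 ratio of −1.70 ± 0.20 (adjusted p = 0.00035). The fractions did not overlap in any of these genes.

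In Hoxa, Hoxa7 (−0.90 ± 0.22, adjusted p = 0.013) and Hoxa3 (−0.65 ± 0.20, adjusted p = 0.035) were lower in KIT+ cells. Both calls were lost without KIT+ replicate 3 (−0.82 for Hoxa7, −0.52 for Hoxa3) or NGN3+ replicate 1 (−0.78 and −0.55), and that of Hoxa3 also without KIT+ replicate 2 (−0.69) or NGN3+ replicate 3 (−0.63). Among the genes that did not pass were Hoxa4 (0.31 ± 0.57), Hoxa9 (−0.32 ± 0.47), Hoxd8 (−0.23 ± 0.17) and Hoxc10 (−1.36 ± 0.48, adjusted p = 0.057). Hoxc10 was well above background on 1 KIT+ array.

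Of the tested markers of other cells 4 of 7 endothelial, 2 of 6 interstitial fibroblast and 5 of 8 peritubular myoid genes fell in KIT+ against NGN3+ cells. The log2 mean signal of endothelial markers was −0.73 to −0.66 on KIT+ arrays and 0.98 to 1.22 in whole testes, while Hoxb2, Hoxb4, Hoxb7, Hoxb13 and Hoxc4 were higher in KIT+ cells than in whole testes. Hoxc6 and Hoxc9 were lower in KIT+ cells than in whole testes, and the part of other cells in their ratios was not tested.

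**Figure D4:**
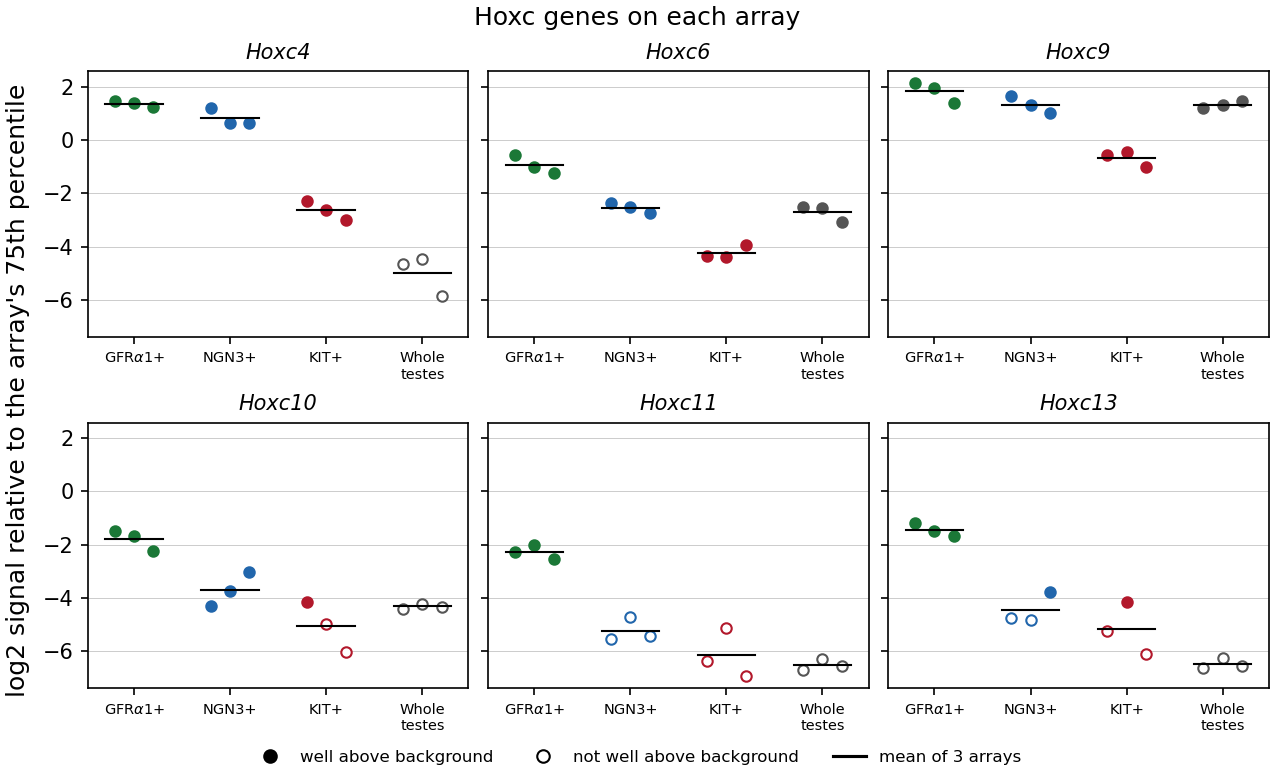
Log2 level of the Hoxc genes on each of the 12 arrays, with the mean of each group as a line and open circles where a spot was not well above background. Hoxc10, Hoxc11 and Hoxc13 are well above background on all 3 GFRα1+ arrays and at −3.04 or less on every other array, and Hoxc4 and Hoxc9 separate KIT+ from NGN3+ cells.

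Promoters were read for all Hox genes that had a window, whether or not they fell or were detected. RefSeq promoter windows of GRCm38.p6, 250 bases before to 50 after a gene's start, were matched to 22 of the 39 Hox genes (24 windows). From Hoxb only Hoxb1, Hoxb4 and Hoxb8 had a window and from Hoxc only Hoxc4, so most windows were of Hoxa and Hoxd genes. The 24 Hox windows held a median of 14.5 CpG, against 7 over 32851 windows of all genes. The sequence TGATNNAT (either strand), in which Pbx and Hox proteins bind together, was found in 4 of 24 Hox windows (16.7%) and in 8.85% of all windows. CCAAT was found in 15 Hox windows (62.5%) against 37.4% of all, TATAAA in 16.7% against 13.6% and GGGCGG in 41.7% against 35.7%. The half-site AGGTCA repeated after a spacer of NNNNN, as bound by retinoic acid receptors, was in no Hox window and in 3 windows overall. So rare a sequence was unlikely to occur in 24 windows, so its absence there decides nothing about these genes. The windows of Hoxb1 (chr11:96365508-96365807, plus strand), Hoxb4 (chr11:96318017-96318316, plus), Hoxb8 (chr11:96281655-96281954, plus) and Hoxc4 (chr15:103034145-103034444, plus) are shown, since these genes fell in KIT+ cells, with TGATNNAT in capitals. Hoxa3 and Hoxa7 also fell and had a window.
Hoxb1: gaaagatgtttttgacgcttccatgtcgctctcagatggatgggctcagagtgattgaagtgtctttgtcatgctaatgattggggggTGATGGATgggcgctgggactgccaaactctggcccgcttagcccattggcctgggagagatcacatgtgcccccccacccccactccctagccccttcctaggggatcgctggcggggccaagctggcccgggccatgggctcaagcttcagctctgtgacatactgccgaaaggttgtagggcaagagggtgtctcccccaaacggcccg
Hoxb4: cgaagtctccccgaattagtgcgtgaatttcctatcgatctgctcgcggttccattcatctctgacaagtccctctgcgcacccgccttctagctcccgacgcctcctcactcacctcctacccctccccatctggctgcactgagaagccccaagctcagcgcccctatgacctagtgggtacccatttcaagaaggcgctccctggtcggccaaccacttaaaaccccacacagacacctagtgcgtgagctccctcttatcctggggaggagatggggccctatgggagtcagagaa
Hoxb8: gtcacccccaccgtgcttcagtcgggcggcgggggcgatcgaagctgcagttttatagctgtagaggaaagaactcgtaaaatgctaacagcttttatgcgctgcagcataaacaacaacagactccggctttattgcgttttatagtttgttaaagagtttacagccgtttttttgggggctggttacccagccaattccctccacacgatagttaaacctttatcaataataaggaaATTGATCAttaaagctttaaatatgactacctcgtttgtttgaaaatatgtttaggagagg
Hoxc4: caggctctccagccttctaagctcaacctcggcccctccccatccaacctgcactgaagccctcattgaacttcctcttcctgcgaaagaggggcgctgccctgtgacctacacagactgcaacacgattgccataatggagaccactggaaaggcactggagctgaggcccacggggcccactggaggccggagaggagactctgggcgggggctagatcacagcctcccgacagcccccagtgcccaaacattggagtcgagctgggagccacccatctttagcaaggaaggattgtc

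Hoxb1 and Hoxb8 each held 1 match and Hoxb4 and Hoxc4 none. Since all 4 genes were chosen because they fell in KIT+ cells, a link between a match and the fall was not tested.

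The comparison of KIT+ with GFRα1+ cells shares its arrays with both comparisons above. It gave 14 of 20 tested Hox genes lower, where 39.5% of 23002 genes were lower, and 4 higher, where 26.6% were higher (66.1% in either direction). Hoxc4 fell most among genes detected on every array, to −2.64 ± 0.36 in KIT+ cells, against 1.34 ± 0.11 in GFRα1+ cells (SD, n = 3; log2 ratio −3.98 ± 0.21, adjusted p = 8.3e-07). Hoxc6 (−3.30 ± 0.20), Hoxb6 (−2.69 ± 0.14), Hoxc9 (−2.50 ± 0.24) and Hoxb13 (−2.12 ± 0.16) followed. Hoxc11 was at least 5.75-fold lower, and Hoxc10 and Hoxc13 were each well above background on 1 KIT+ array and on all 3 GFRα1+ arrays.

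Hoxa3, Hoxa4 and Hoxd8 were among the 4 genes higher in KIT+ than in GFRα1+ cells, with log2 ratios of 1.0 ± 0.20 (adjusted p = 0.0019), 3.54 ± 0.56 (adjusted p = 0.00055) and 0.87 ± 0.17 (adjusted p = 0.0020). With 2 of 3 GFRα1+ arrays at background, Hoxa4 was at least 4.65-fold higher. Within slide 2 the Hoxa3 call was lost (0.63, adjusted p = 0.052), and the other 17 of 18 calls were kept.

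Sorted fractions were then set against whole testes, where most cells are spermatocytes and spermatids. Most Hoxb genes and Hoxc4 were higher in sorted spermatogonia, Hoxc6 was higher in GFRα1+ cells and lower in KIT+ cells, and Hoxa4, Hoxd4, Hoxd8 and Hoxd9 were higher in whole testes. Here the second probe stood for Hoxb3. It was lower in KIT+ cells (log2 ratio −1.69, adjusted p = 0.017) and did not pass in GFRα1+ or NGN3+ cells. The first probe, background in KIT+ cells and whole testes, was higher in GFRα1+ (2.02, adjusted p = 0.0037) and NGN3+ cells (3.69, adjusted p = 5.7e-05) when tested on its own. GFRα1+ cells had 13 of 22 tested Hox genes higher, against 49.9% of all genes, and 6 lower, against 37.5% (87.5% in either direction). NGN3+ cells had 10 of 21 higher, against 44.1%, and 5 lower, against 39.6% (83.7% in either direction). KIT+ cells had 9 of 19 higher, against 43.3%, and 9 lower, against 41.6% (84.9% in either direction). The counts of higher genes in NGN3+ and KIT+ cells, and of lower genes in KIT+ cells, were thus near the shares over all genes.

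Mean Hoxc4 levels were 1.34 ± 0.11 (GFRα1+), 0.83 ± 0.31 (NGN3+) and −2.64 ± 0.36 (KIT+; SD, n = 3 each), and the gene was background in whole testes, at −4.67, −4.45 and −5.84. Against whole testes it was at least 53.8-fold higher in GFRα1+ cells (adjusted p = 4.9e-09), at least 37.6-fold in NGN3+ cells and at least 3.40-fold in KIT+ cells. Hoxb13, whose sorted values are given above, was background there too, at −4.65, −6.20 and −4.97. It was at least 33.7-fold higher in GFRα1+ cells (adjusted p = 8.1e-09), at least 16.7-fold in NGN3+ cells and at least 7.74-fold in KIT+ cells. The order of these bounds only restates the means of the sorted fractions, since each was set against the same whole testes values. For Hoxc4 the step from GFRα1+ to NGN3+ cells did not pass (log2 ratio −0.52, adjusted p = 0.062).

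Hoxb2 averaged 0.41 ± 0.22 in NGN3+ cells, at least 28.1-fold above whole testes (adjusted p = 4.05e-09), where it was background at −4.87, −5.81 and −5.02. Hoxb4 averaged 1.34 in NGN3+ cells and had −3.82, −5.22 and −3.60 in whole testes, where 2 of 3 arrays were well above background (log2 ratio 5.56 ± 0.34). Hoxb7 averaged 1.63 in NGN3+ cells and had −3.50, −4.04 and −3.44 in whole testes, with 2 of 3 arrays well above background (log2 ratio 5.29 ± 0.18). Every sorted array was above every whole testes array for these 3 genes.

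Mean Hoxa4 levels were −5.30 (GFRα1+), −2.07 (NGN3+) and −1.76 (KIT+), and the gene had 1.30, 1.26 and 1.22 in whole testes. Its log2 ratio over whole testes was −6.56 ± 0.51 in GFRα1+ cells (1 of 3 arrays well above background, at least 37.6-fold lower), −3.33 ± 0.51 in NGN3+ cells and −3.02 ± 0.51 in KIT+ cells. Hoxd8 averaged −1.03, 0.06 and −0.17 in these fractions and had 2.86, 3.15 and 3.02 in whole testes, with ratios of −4.04 ± 0.17, −2.95 ± 0.17 and −3.17 ± 0.17 in the same order of fractions (adjusted p = 9.0e-10 in GFRα1+ cells). No sorted array reached the level of a whole testes array in either gene.

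Hoxd4 was background in GFRα1+ and KIT+ cells and well above background on 2 of 3 NGN3+ arrays, at −4.19, −3.96 and −5.32, against −2.47, −2.85 and −2.58 in whole testes. It was at least 2.73-fold lower in GFRα1+ cells and at least 4.50-fold lower in KIT+ cells than in whole testes, and the log2 ratio in NGN3+ cells was −1.85 ± 0.30. Hoxd9 was background on all 9 sorted arrays and had −2.98, −3.11 and −3.63 in whole testes, which makes it at least 1.80-fold lower in GFRα1+ cells, at least 3.26-fold in NGN3+ and at least 2.96-fold in KIT+ cells. NGN3+ and KIT+ arrays shared no slide with whole testes. On slide 1, 18 of the 19 calls of GFRα1+ cells against whole testes were kept, Hoxa7 being the one lost (−0.43, adjusted p = 0.27).

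**Figure D5:**
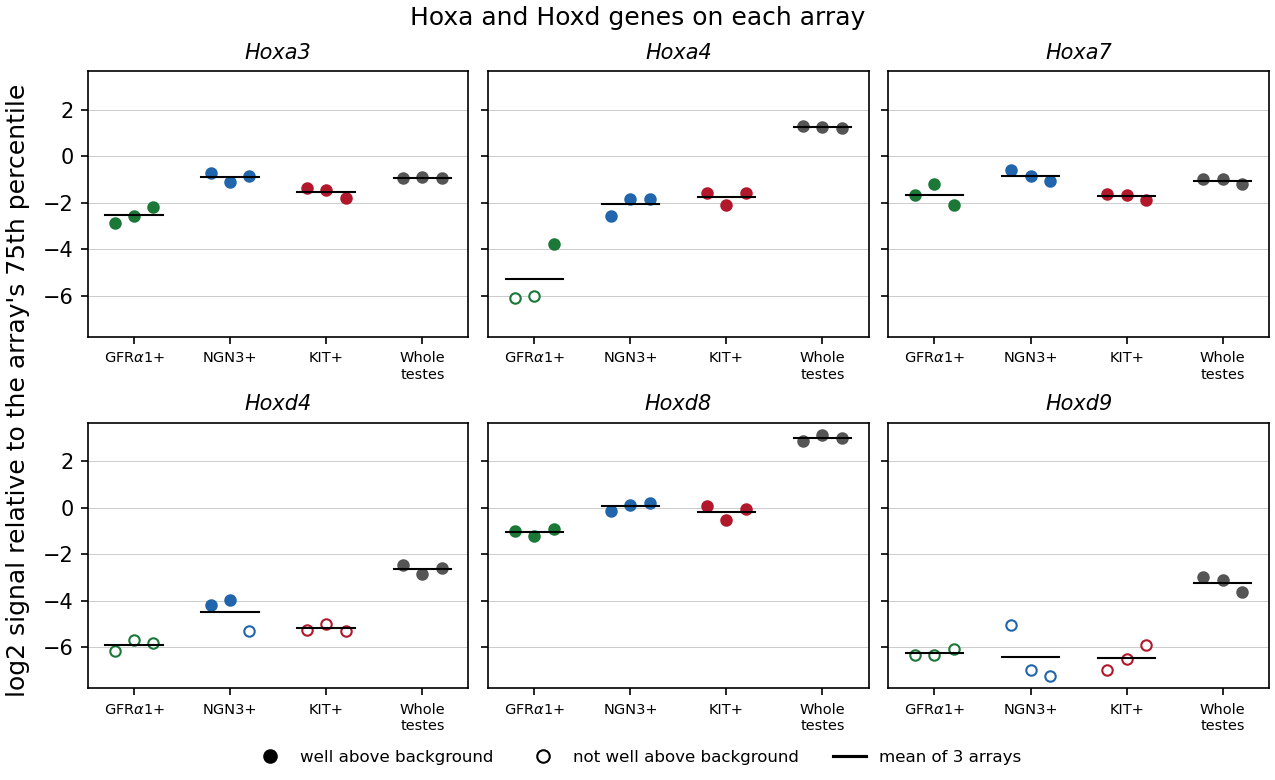
Log2 level of Hoxa and Hoxd genes on each of the 12 arrays, with the mean of each group as a line and open circles where a spot was not well above background. Hoxa4, Hoxd4, Hoxd8 and Hoxd9 are highest in whole testes.

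Genes that work with or on Hox genes were read from separate lists. Over all genes, 20.0% were higher and 36.4% lower in NGN3+ against GFRα1+ cells, with a median log2 ratio of −0.19, and 17.5% were higher and 17.0% lower in KIT+ against NGN3+ cells, with a median of 0.05. Of 9 TALE cofactors NGN3+ cells had 2 higher and 4 lower than GFRα1+ cells, and KIT+ cells had 2 higher and 2 lower than NGN3+ cells. Pbx3 averaged −0.05 ± 0.13 in NGN3+ cells and 1.28 ± 0.27 in GFRα1+ cells (SD, n = 3; log2 ratio −1.33, adjusted p = 0.00019). Pbx4 averaged −0.75 ± 0.31 in NGN3+ cells and −1.79 ± 0.26 in GFRα1+ cells (log2 ratio 1.04, adjusted p = 0.0019). Pknox2 was background in GFRα1+ cells and averaged −0.09 in NGN3+ cells, 0.31 in KIT+ cells and 3.15 in whole testes.

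Regulators upstream of Hox genes included 9 tested in NGN3+ against GFRα1+ cells, of which 5 were lower and 0 higher (median log2 ratio −0.36), where 36.4% of all genes were lower. Egr2, an activator of Hoxb2 in the hindbrain, averaged 0.52 ± 0.17 in NGN3+ cells and 4.40 ± 0.11 in GFRα1+ cells (log2 ratio −3.88, adjusted p = 1.6e-06), while Hoxb2 was higher. In KIT+ cells Egr2 averaged −1.70 (log2 ratio to NGN3+ cells −2.22, adjusted p = 2.3e-05). Kmt2a, a histone methyltransferase that maintains Hox expression, was lower in NGN3+ cells (−1.12, adjusted p = 0.00029). In KIT+ against NGN3+ cells 2 of 8 such regulators were higher and 1 was lower.

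The ParaHox genes, relatives of the Hox clusters, include Cdx2, an activator of trunk Hox genes, and Pdx1. Both passed the background flag on all 3 GFRα1+ arrays, at means of −2.06 and −1.62, and on none of the NGN3+, KIT+ or whole testes arrays. Cdx1 averaged −0.90 ± 0.28 in KIT+ cells and −2.54 ± 0.18 in NGN3+ cells (log2 ratio 1.64, adjusted p = 0.0016). Of 3 ParaHox genes tested in NGN3+ against GFRα1+ cells 2 were lower, and the 1 tested in KIT+ against NGN3+ cells was higher.

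Of 16 Polycomb genes 11 fell and 1 rose in NGN3+ cells relative to GFRα1+ cells, where 36.4% of all genes fell and 20.0% rose, with a median log2 ratio of −0.51 against −0.19 over all genes. Jarid2 was lower by this test (−1.09, adjusted p = 0.00042), as was Phc1 (−0.65, adjusted p = 0.00067). In KIT+ against NGN3+ cells 4 were higher and 2 lower, where 17.5% and 17.0% of all genes were, and the median was 0.19 against 0.05.

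Of 9 tested genes that flank the clusters 2 were lower and 2 higher in KIT+ than in NGN3+ cells, where 17.0% and 17.5% of all genes were, with a median log2 ratio of 0.13 against 0.05 over all genes. In NGN3+ against GFRα1+ cells 3 of 9 were higher and 2 lower. Ttll6, next to Hoxb13, averaged 0.93 ± 0.49 in NGN3+ cells and −2.61 ± 0.38 in GFRα1+ cells (adjusted p = 2.5e-05), and Lnpk, near Hoxd13, averaged −0.44 ± 0.45 in NGN3+ cells and −2.17 ± 0.19 in GFRα1+ cells (adjusted p = 0.00027). Whole testes were higher still for both, at 4.50 and 3.02. Cbx5, near Hoxc, was lower in NGN3+ cells (−1.11, adjusted p = 2.0e-05).

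Noncoding RNAs of the clusters were covered for 4 of 15 on the list. Hoxb5os, antisense to Hoxb5, was background in GFRα1+ cells and averaged −1.49 in NGN3+ cells, −1.69 in KIT+ cells and 1.92 in whole testes, while Hoxb5 itself did not pass the background flag in whole testes. Hoxb5os, Ttll6 and Lnpk were lowest in GFRα1+ cells and highest in whole testes, as the spermatid markers were, and the part of such cells was not tested. Hoxa11os averaged −3.71 ± 0.55 in GFRα1+ cells, where 1 array was well above background, −2.89 ± 0.29 in NGN3+ cells and −3.94 ± 0.32 in KIT+ cells (SD, n = 3 each). The log2 ratio was 0.82 for NGN3+ over GFRα1+ cells (adjusted p = 0.037) and −1.04 for KIT+ over NGN3+ cells (adjusted p = 0.022). Hoxd3os1 was well above background only in whole testes, and Hoxaas3 on no array.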

How the data were processed

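RNA of 12 samples was labelled with Cy3 and hybridised to 1-colour Agilent mouse arrays. The authors deposited scanner files with the processed intensity of each spot (Agilent Feature Extraction, background subtracted) and a log2 table, which equals the log2 processed intensity minus the array's 75th percentile. The deposited scanner intensities were used here, with outlier spots and control spots left out, as log2 values minus the 75th percentile. Probe names were updated through RefSeq accessions where these matched.

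For each gene the probe with the highest mean was tested with limma 3.58.1 in R 4.3.3 (lmFit and eBayes, Benjamini-Hochberg over all genes tested, threshold 0.05) if it passed the well-above-background flag on each of the 3 arrays in 1 or both of the groups compared. Sorted fractions were fitted on 9 arrays and comparisons with whole testes on 12. The 3 samples of a cell type came from different animals, and whether NGN3+ and KIT+ samples shared mice is not stated. Genes described in full were the 10 with the largest called log2 ratio in NGN3+ over GFRα1+ and in KIT+ over NGN3+ cells and the 6 with the largest against whole testes. Of each gene list, up to 3 members with the smallest adjusted p in either comparison could be named. The members and gene lists were chosen with earlier results of these data known. Alternatives covered background correction, scaling, probe filters, the methods' t-test, slide, replicate number and each array left out. Results of 2 genes are not reported here, although counts and medians over lists include them.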

Additional observations from a re-analysis of the deposited data

How the results depend on the processing

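A call was counted as kept if it passed with the same sign in every alternative that still tested the gene. A filter that removed the gene thus did not count against it. By this count, 10 of 17 Hox calls were kept in NGN3+ over GFRα1+ cells, 12 of 15 in KIT+ over NGN3+ cells (the others being Hoxa3, Hoxa7 and Hoxb3), 17 of 18 in KIT+ over GFRα1+ cells, and 18 of 19, 13 of 15 and 14 of 18 in GFRα1+, NGN3+ and KIT+ cells over whole testes. The share of calls kept over all genes was not counted. With slide as a block, NGN3+ over GFRα1+ cells gave 8 Hox genes higher instead of 10 and 4 lower instead of 7. Over all 23790 genes this block gave 3688 higher instead of 4767 and 5615 lower instead of 8657. With normexp background correction, KIT+ over NGN3+ cells gave 2 Hox genes higher instead of 1 and 15 lower instead of 14. Over all genes normexp gave 4552 higher and 4286 lower of 24092, against 4223 and 4104 of 24110. When a gene had to be well above background on all arrays of both groups, fewer Hox genes were tested against whole testes. This filter removes genes that are background in whole testes. GFRα1+ cells then had 2 of 5 Hox genes higher and 3 lower, where 10443 and 5093 of 17883 genes were. NGN3+ cells had 0 of 8 higher and 3 lower, where 8982 and 8525 of 20711 genes were. KIT+ cells had 0 of 7 higher and 6 lower, where 8864 and 8278 of 20181 genes were.

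The sign of 4 genes in NGN3+ over GFRα1+ cells depended on a setting. Hoxa9 was −0.023 with a floor at the lowest signal well above background. Hoxb3 was −0.15 with all 12 arrays, −0.40 without NGN3+ replicate 1 and −0.066 without NGN3+ replicate 3 (−0.40 to 1.70 over arrays left out), since its second probe then stood for the gene. Hoxb5 was 0.13 with the percentile over those probes alone that passed the background flag on all arrays, 0.081 without NGN3+ replicate 2 and 0.052 without GFRα1+ replicate 3 (−0.22 to 0.081 over arrays left out), and Hoxb8 was −0.048 with normexp. For Hoxa9, Hoxb5 and Hoxb8 the cause was not tested. That percentile gave 5940 genes higher and 5936 lower in NGN3+ over GFRα1+ cells, against 4767 and 8657, and 10580 and 10575 in GFRα1+ cells over whole testes, against 12077 and 9078.

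Leaving out 1 array at a time gave 8 to 10 higher and 5 to 7 lower Hox genes in NGN3+ over GFRα1+ cells, 1 to 2 and 11 to 14 in KIT+ over NGN3+ cells (2 higher without KIT+ replicate 3), and 4 to 4 and 13 to 15 in KIT+ over GFRα1+ cells. Against whole testes it gave 13 to 14 and 5 to 6 in GFRα1+ cells, 10 to 11 and 5 to 5 in NGN3+ cells, and 9 to 9 and 8 to 9 in KIT+ cells. Over all genes, leaving out 1 array gave 4186 to 5331 higher and 6234 to 8890 lower in NGN3+ over GFRα1+ cells. For KIT+ over NGN3+ cells these ranges were 2857 to 3741 and 3147 to 3978. Detected Hox genes numbered 18 to 21 in GFRα1+ cells and 20 to 21 in NGN3+ cells. They numbered 16 to 17 in KIT+ cells and 10 to 12 in whole testes. With the replicate block 9 were higher and 7 lower in NGN3+ over GFRα1+ cells, and 1 and 13 in KIT+ over NGN3+ cells. Samples of the same number did not deviate together (r of −0.55 to 0.26), and no pairing was used. Deviations from a mean of so few arrays cannot exclude that NGN3+ and KIT+ samples, from the same mouse line, shared mice.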
